A study of Homo sapiens with 12 samples.

Results

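Aminoacyl-tRNA synthetases load each transfer RNA with its amino acid, and this account follows 35 of their genes, 19 for cytosolic and 16 for mitochondrial enzymes, across 12 arrays of human soft tissue sarcoma cells. The genes were taken from a list of names, and each was read from its brightest probe set. Of the 35, 32 could be measured, 17 cytosolic and 15 mitochondrial. MARS1, QARS1 and TARS2 are not analysed here, because the platform annotation gives their probe sets more than 1 gene. All 32 passed the filter on low signal, for which the signal had to exceed the middle value of the table (137) on 3 or more arrays. PARS2 exceeded that median only on the 6 arrays without taurolidine. MARS2 exceeded it on 7, those 6 and 1 with taurolidine. Both genes had thus passed through the group in which they were high.

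The cells were of 3 established lines. The labels give A-204 as rhabdomyosarcoma, SK-LMS-1 as a leiomyosarcoma line and VA-ES-BJ as an epithelioid cell sarcoma line. Every line had 1 array of untreated cells, 1 of cells given taurolidine at 250 µmol/l, 1 of cells given TRAIL at 50 ng/ml, and 1 of cells given both, with 6 h of treatment. Taurolidine is a taurine-derived antimicrobial drug, and TRAIL is a ligand of death receptors on the cell surface. The study's title names a synergy of the 2 agents as its subject. The skeletal muscle regulator MYOG was listed at 10.2, 15.6 and 24.6 in untreated A-204, SK-LMS-1 and VA-ES-BJ cells, MYOD1 at 28.6, 89.8 and 35.8, and the muscle filament gene DES at 132, 127 and 145. Defining skeletal muscle markers were therefore at or below the middle of the table in A-204 cells, against the label. Of the smooth muscle genes, TAGLN, CNN1 and MYH11 were highest in SK-LMS-1 cells (9763, 661 and 137), while ACTA2 read 1667, 1686 and 4980 in A-204, SK-LMS-1 and VA-ES-BJ cells. SMARCB1, which epithelioid sarcomas commonly lose, read 1235, 3530 and 152 in the same order, lowest in VA-ES-BJ cells. The 2 epithelial genes went apart. KRT19 was highest in VA-ES-BJ cells (9.33, 27.9 and 16190), and EPCAM was highest in A-204 cells (1915, 13.8 and 130.5).

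Cytosolic synthetases supply the ribosomes of the cytosol. A separate set of nuclear genes, named with a final 2, encodes enzymes that are imported into mitochondria and charge the tRNAs of the mitochondrial genome. Several cytosolic enzymes sit together in a multi-synthetase complex, EPRS1 carries glutamyl and prolyl activity in 1 chain, and GARS1 and KARS1 serve both compartments. Many cytosolic synthetase genes are known targets of ATF4, the transcription factor of the integrated stress response, through composite C/EBP-ATF sites.

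Promoter windows of 300 bases, 250 before and 50 after the annotated start, were read from RefSeq on GRCh38.p14. They were found for 30 of the 35 genes and 27 of the 32 measured ones. The upstream 250 bases of MARS2 and PARS2 are shown because these genes carried the largest changes. Capitals mark the letters CCGGAAG (an ETS motif) and CACGTG (an E-box) and the 10 letters of an NRF1 motif with 1 free base, all searched on both strands, with the start site just after the last base. MARS2 lies at chr2:197705119-197705368 on the plus strand and PARS2 at chr1:54764524-54764773 on the minus strand.
MARS2: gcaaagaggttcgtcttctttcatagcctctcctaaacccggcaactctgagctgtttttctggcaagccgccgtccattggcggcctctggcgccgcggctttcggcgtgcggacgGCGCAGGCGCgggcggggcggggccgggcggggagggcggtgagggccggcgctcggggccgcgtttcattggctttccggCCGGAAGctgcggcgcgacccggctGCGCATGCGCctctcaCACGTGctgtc
PARS2: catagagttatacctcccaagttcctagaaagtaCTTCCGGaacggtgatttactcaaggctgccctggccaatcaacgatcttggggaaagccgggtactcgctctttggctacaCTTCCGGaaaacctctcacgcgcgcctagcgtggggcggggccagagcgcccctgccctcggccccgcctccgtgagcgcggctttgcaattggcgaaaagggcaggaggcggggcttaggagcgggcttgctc

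The NRF1 letters stood 133 and 27 bases upstream of the MARS2 start, and those of PARS2 began at base 4 after its start, outside the stretch shown. Of the 27305 genes with a window, 6.28% held the NRF1 letters, 10.7% the ETS letters and 7.43% the E-box. Among measured cytosolic genes with a window, 3 of 14 held the NRF1 letters, 8 the ETS letters and 1 the E-box. Among 13 mitochondrial ones the counts were 3, 5 and 3. These matches describe the letters in a window and no more.

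The C/EBP-ATF letters TGATGNAA were searched in the same windows, on both strands, since they are the motif tied to ATF4. They stood in 5 of 14 measured cytosolic windows, in 1 of 13 mitochondrial windows (YARS2) and in 3.67% of all windows. The 5 cytosolic sites are shown with 11 bases on either side, each on its gene's own strand and with the match in capitals. They lie at chr16:70289675-70289704 (AARS1), chr11:3057407-3057436 (CARS1), chr9:92293692-92293721 (IARS1), chr18:57621804-57621833 (NARS1) and chr5:33440956-33440985 (TARS1), the last on the plus strand and the others on the minus strand.
AARS1: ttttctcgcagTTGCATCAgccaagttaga
CARS1: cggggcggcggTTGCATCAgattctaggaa
IARS1: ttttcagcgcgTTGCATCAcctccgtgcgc
NARS1: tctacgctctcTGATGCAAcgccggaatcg
TARS1: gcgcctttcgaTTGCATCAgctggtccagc

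The match began 187, 2 and 13 bases upstream of the start in AARS1, CARS1 and IARS1, and at bases 15 and 3 after the start in NARS1 and TARS1. All 5 sites carry a C at the base the motif leaves free, reading TGATGCAA on one strand or the other.

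The first comparison set the 6 arrays with taurolidine, alone or with TRAIL, against the 6 without. MARS2 and PARS2, which charge the mitochondrial tRNAs for methionine and proline, fell in all 3 lines, by 2.29 and 2.82 on the log2 scale. No cytosolic synthetase was called lower, and 10 of 17 rose by small amounts, from 1.15-fold in FARSB to 1.41-fold in VARS1. However, scaling to spike-in RNA turns these rises negative, as described further on. Of the other mitochondrial genes 4 rose (CARS2, FARS2, SARS2 and VARS2) and 9 did not pass the test. In all, 14 of 32 members were higher and 2 lower, where the same test called 16.6% of 14221 genes higher and 18.1% lower. Without A-204, SK-LMS-1 or VA-ES-BJ the 14 became 0, 1 and 3, and the 16.6% of all genes became 3.54%, 4.58% and 8.03%. Without the cell line term 0 members and 0.345% of all genes were called higher. Calls of small rises therefore needed all 3 lines and the comparison within a line, for members as for all genes. A call is an adjusted p under 0.05 in limma, Benjamini-Hochberg over all 14221 genes, and changes are on the scale log2(signal + 11.8), which understates those of dim genes.

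MARS2 signal was 427, 661 and 961 in untreated A-204, SK-LMS-1 and VA-ES-BJ cells, and 355, 658 and 809 with TRAIL. With taurolidine it was 95.3, 99.4 and 132, and with both agents 215, 82.4 and 105. Every array with taurolidine lay below every array without it, and A-204 cells with both agents had the highest of the treated values. The fall was 4.89-fold (log2 change -2.29 ± 0.29 SE, adjusted p = 0.00103), with -1.37 for A-204 cells and -2.71 and -2.79 for the SK-LMS-1 and VA-ES-BJ lines.

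PARS2 signal was 668, 450 and 536 in untreated A-204, SK-LMS-1 and VA-ES-BJ cells, and 770, 392 and 400 with TRAIL. It was 128, 117 and 25.04 with taurolidine, and 34.2, 29.5 and 131 with both agents. The 2 sets of 6 arrays did not overlap, but which treated array was lowest differed between lines. The fall was 7.08-fold (log2 change -2.82 ± 0.44 SE, adjusted p = 0.00248), with -3.18, -2.57 and -2.72 in the 3 lines. Without A-204 it was -2.64 with an adjusted p of 0.0506.

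All 6 taurolidine values of PARS2 and 5 of 6 of MARS2 lay below the middle of the table, where the size of a fold rests on the constant added. With 1 in its place the changes were -2.40 in MARS2 and -3.07 in PARS2, and with the table median they were -1.56 and -1.66, all past the threshold. Each gene had a single probe set, so no second one could be compared. Over all genes, 78 of 14221 (0.548%) fell at least 4-fold and passed the test, and the arrays of 932 (6.55%) did not overlap. MARS2 and PARS2 were the only 2 members in either group, and both had passed the filter through the arrays in which they were high. Within every line, both arrays with taurolidine lay on the same side of both without in 13 of 32 members, 11 above and 2 below, and in 29.1% of all genes.

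The genes of MARS2 and PARS2 span 3027 and 7626 bases in RefSeq and are the 2 shortest of the 35. HARS2, at 7851 bases the next shortest, had a log2 change of -0.02 ± 0.06 (adjusted p = 0.829). Among all genes under 4000 bases, 9.06% were lower with taurolidine, compared with 12.4% from 4000 to 10000 bases and 22.9% over 100000 bases. Called falls of at least 4-fold made up 0.307%, 0.552% and 0.314% of these groups.

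**Figure D1:**
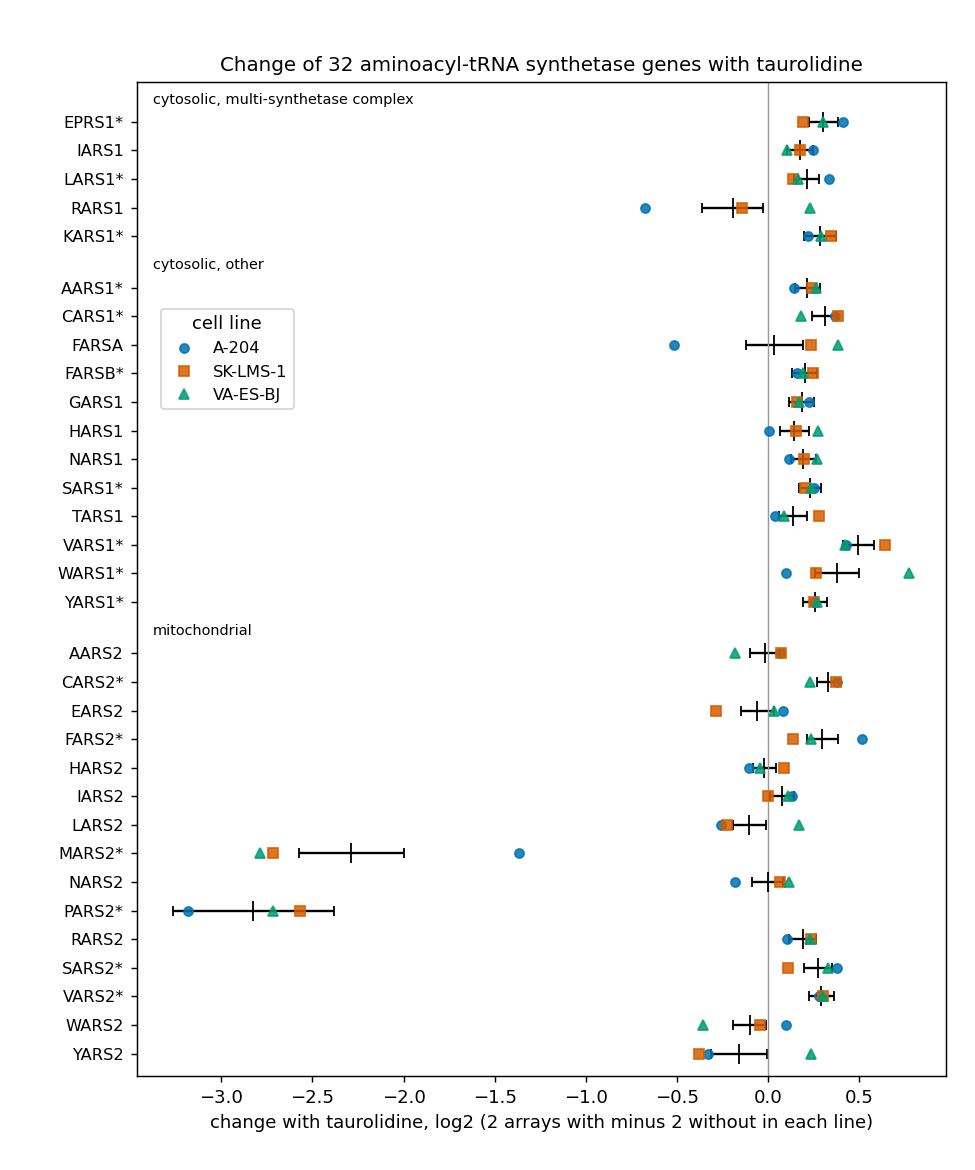
The log2 change with taurolidine is plotted for 32 synthetase genes, grouped by role, with a coloured symbol for each cell line and a black bar for the mean ± SE of the model; an asterisk marks genes that passed the test. MARS2 and PARS2 lie between -1.37 and -3.18 in every line, and the other genes lie within 1 unit of 0; with arrays scaled to spike-in RNA instead, all 32 means fall below 0.

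The 5 measured enzymes of the multi-synthetase complex had log2 changes of -0.20 to 0.30, and 3 of them rose. EPRS1 rose by 0.30 ± 0.08 (adjusted p = 0.0226), KARS1 by 0.29 ± 0.09 (0.038) and LARS1 by 0.21 ± 0.07 (0.0496). IARS1 had 0.18 (0.0898). RARS1, for arginine, was the only cytosolic gene with a negative mean, -0.20 ± 0.17 (0.399), and its lines went apart, as given further on.

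The 12 cytosolic enzymes measured outside the complex all had means above 0, from 0.04 in FARSA to 0.50 in VARS1, and 7 of them passed. VARS1, for valine, had the largest change of the class. Its signal was 2478, 3437 and 7022 in untreated A-204, SK-LMS-1 and VA-ES-BJ cells and 3032, 3673 and 7686 with TRAIL. It was 3635, 6045 and 9037 with taurolidine and 3751, 5083 and 10720 with both agents. Within each line both arrays with taurolidine stood above both without, while the lines overlapped because their own levels differed. The rise was 1.41-fold (log2 0.50 ± 0.09 SE, adjusted p = 0.00381).

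CARS1, for cysteine, read 6027, 12060 and 4140 in untreated A-204, SK-LMS-1 and VA-ES-BJ cells and 8251, 15710 and 4888 with taurolidine. With TRAIL it read 6242, 11650 and 4483, and with both agents 7611, 15180 and 4882. It was higher with taurolidine in all 3 lines, by 0.31 ± 0.07 (adjusted p = 0.00951). AARS1, FARSB, SARS1, WARS1 and YARS1 also rose, by 0.20 to 0.38. GARS1 (0.18, adjusted p = 0.0675), HARS1 (0.14, 0.20), NARS1 (0.19, 0.0641) and TARS1 (0.14, 0.206) did not pass. Of the 5 genes with C/EBP-ATF letters shown above, AARS1 and CARS1 passed and IARS1, NARS1 and TARS1 did not.

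Among mitochondrial enzymes the partner of CARS1, CARS2, rose most. Its signal was 3166, 1330 and 2015 in untreated A-204, SK-LMS-1 and VA-ES-BJ cells and 3117, 1327 and 1986 with TRAIL, nearly the same in each line. It rose to 3945, 1680 and 2230 with taurolidine and to 4229, 1769 and 2479 with both. The change was 1.26-fold (log2 0.33 ± 0.06, adjusted p = 0.00505). FARS2 rose by 0.30 ± 0.09 (0.0305), VARS2 by 0.29 ± 0.07 (0.014) and SARS2 by 0.27 ± 0.08 (0.0251). RARS2 had 0.19 (0.078) and IARS2 0.08 (0.398). AARS2, EARS2, HARS2, LARS2, NARS2, WARS2 and YARS2 had changes from -0.16 to 0.00, with adjusted p of 0.413 or more.

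**Figure D2:**
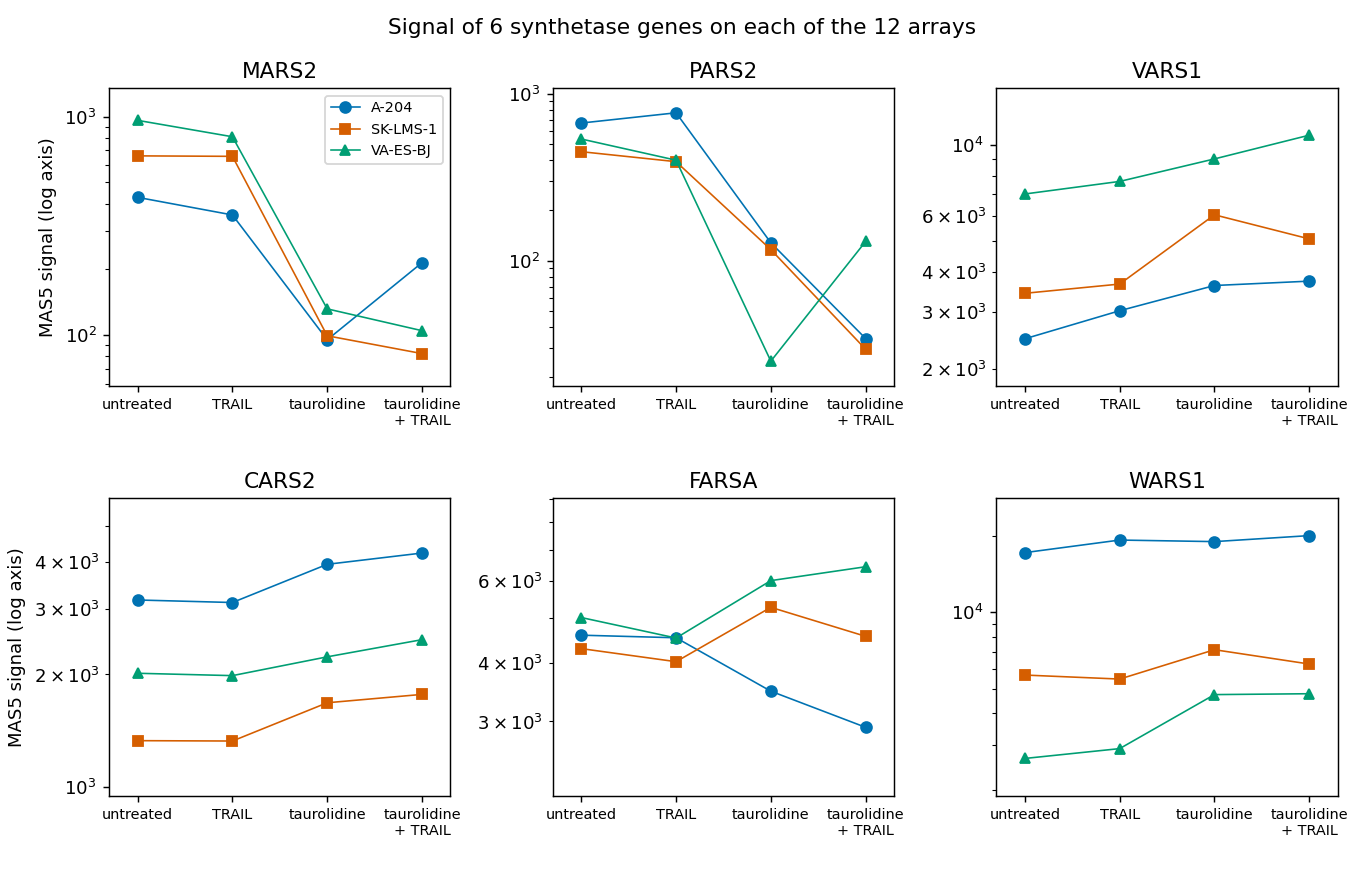
MAS5 signal (log axis) of 6 synthetase genes is plotted on each of the 12 arrays, with 1 coloured line joining the 4 treatments of a cell line. MARS2 and PARS2 drop on every array with taurolidine, VARS1 and CARS2 rise in each line, FARSA falls in A-204 cells and rises in the other lines, and WARS1 rises mostly in VA-ES-BJ cells; with scaling to spike-in RNA the rises of VARS1, CARS2 and WARS1 are below 0 on average.

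Set side by side, the cytosolic genes had a median change of 0.21, with 16 of 17 above 0, and the mitochondrial genes -0.02, with 6 of 15 above 0. The median of all genes was 0.04. In A-204, SK-LMS-1 and VA-ES-BJ cells the cytosolic medians were 0.22, 0.24 and 0.26, and the mitochondrial ones 0.08, 0.06 and 0.12. Without MARS2 and PARS2 the mitochondrial median was 0.00. The difference between classes has no test, since genes of a class are not replicates.

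Brightness moved with the result. Cytosolic probe sets had mean signals of 4637 to 33600 and mitochondrial ones 307 to 10010, against a median of 1190 over all genes; signals of different probe sets do not compare RNA amounts. The 2819 genes at least as bright as FARSA, the dimmest cytosolic member, had a median change of 0.18, with 36.7% of them called higher and 8.51% lower, against 10 and 0 of 17 cytosolic synthetases. Genes with mean signals from 500 to 1000 had a median of -0.10, and those from 10000 to 20000 a median of 0.20. After quantile normalisation, which gives every array 1 distribution, the cytosolic median stood 0.004 above that of all genes instead of 0.17. The order of the classes then turned, with medians of 0.09 in cytosolic and 0.11 in mitochondrial genes. How far brightness accounts for the class difference was not tested.

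**Figure D3:**
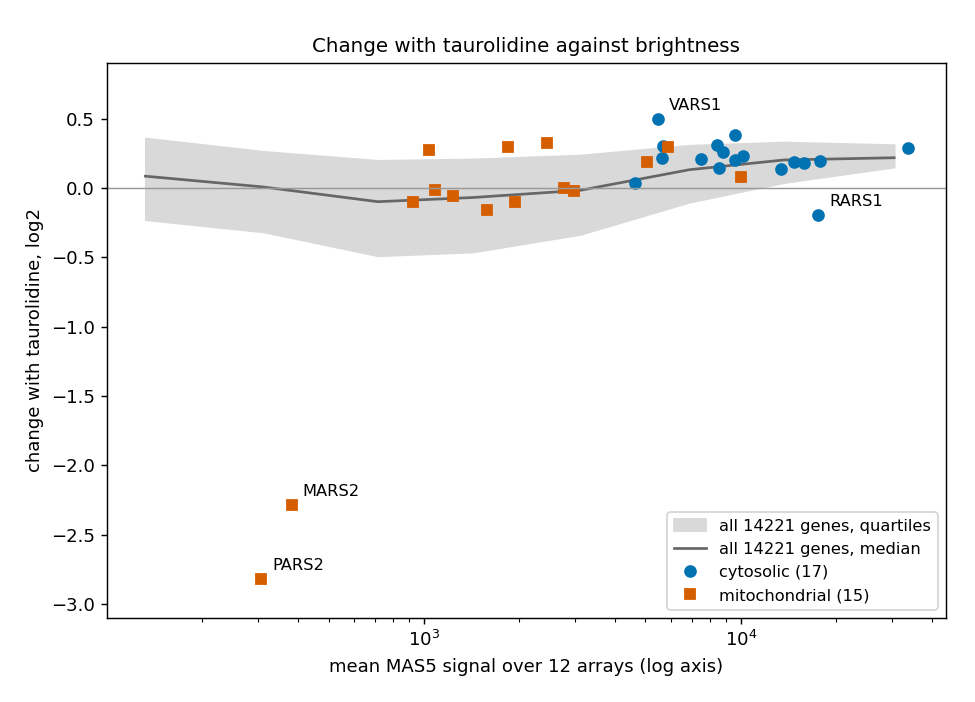
The log2 change with taurolidine is plotted against mean MAS5 signal (log axis) for 17 cytosolic (circles) and 15 mitochondrial (squares) synthetase genes, over the median (line) and quartiles (band) of all 14221 genes in 8 brightness groups. Several synthetases lie outside the band, among them VARS1 above it and RARS1 below it, and MARS2 and PARS2 lie far below it; scaling to spike-in RNA moves the median of all genes from 0.04 to -0.55 and the synthetases with it.

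The scaling sets the sign of the small rises. MAS5 gives each array the same mean, and the 27 poly-A spike-in probe sets, which detect RNA added in processing, were higher on the arrays with taurolidine by 0.59 ± 0.11 (SD over 3 lines, log2). With arrays scaled to these spikes the median of all genes was -0.55, all 32 members had negative means and 30 were called lower. Of all genes, 68.3% were then called lower and 0.534% higher. This scaling shifts all genes of an array alike, so distances from the median of all genes are the same by construction. MARS2 and PARS2 had -2.88 and -3.41. Whether total messenger RNA changed was not tested.

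Enzymes for the same amino acid could be set against each other in 14 pairs. The prolyl activity showed the widest gap, with EPRS1 at 0.30 and PARS2 at -2.82, a difference of 3.13 ± 0.43 (SD over 3 lines). The glutamyl activity of EPRS1 faced EARS2 at -0.06, a difference of 0.36 ± 0.11. Each gene is read here from its brightest probe set, and the dimmer ones of EPRS1 had -0.09 and -0.68. For cysteine, serine and valine both partners rose, with differences of -0.02 ± 0.03, -0.05 ± 0.12 and 0.20 ± 0.12. For tryptophan WARS1 had 0.38 and WARS2 -0.10, and the difference ran from 0.00 in A-204 to 1.13 in VA-ES-BJ cells. The differences for phenylalanine (-0.26) and arginine (-0.39) were negative on average and -1.03 and -0.78 in A-204 cells. There FARSA had -0.52 and FARS2 0.52, and RARS1 had -0.67 and RARS2 0.10.

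HARS1 and HARS2 start back to back on chromosome 5, with the 84 bases at chr5:140691371-140691454 between their first bases. The interval is shown on the HARS2 strand, plus, because the 2 genes share it and yet differed in level between lines; capitals mark the ETS letters.
HARS1 and HARS2: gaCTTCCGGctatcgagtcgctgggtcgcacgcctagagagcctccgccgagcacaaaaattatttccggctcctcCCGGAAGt

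Neither gene passed for taurolidine (HARS1 0.14 ± 0.08, HARS2 -0.02 ± 0.06). Over the 4 arrays of a line, HARS1 had mean signals of 7208, 8849 and 9499 in A-204, SK-LMS-1 and VA-ES-BJ cells, lowest in A-204. HARS2 had 2825, 2425 and 3653, lowest in SK-LMS-1. Both differed between lines (adjusted p = 0.0149 and 0.000521, limma's F test).

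Against untreated cells, taurolidine alone raised VARS1 by 0.58 ± 0.12 (adjusted p = 0.0166) and CARS1 by 0.36 ± 0.10 (0.0355). MARS2 and PARS2 were lower, at -2.46 ± 0.41 (0.00729) and -2.68 ± 0.62 (0.0229). These 4 of 32 members compare with 19.2% of all genes called, 7.71% higher and 11.5% lower. Both agents together raised VARS1 (0.59), CARS2 (0.37) and VARS2 (0.36) and lowered MARS2 (-2.28) and PARS2 (-3.11), 5 of 32 against 18.9% of all genes (7.58% higher, 11.3% lower). Taurolidine added to TRAIL raised AARS1 (0.39) and CARS2 (0.39) and lowered MARS2 (-2.11) and PARS2 (-2.97), 4 of 32 against 16.2% (6.5% higher, 9.72% lower). These comparisons share arrays and are not independent of each other. With any 1 line left out, none of these rises passed the test, and at most 1 of the falls did. Of all genes, 0.155% to 0.492% were then called higher and 1.48% to 3.26% lower.

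TRAIL alone moved no synthetase past the threshold, and it called 0% of all genes in limma, with 3.96% at an unadjusted p under 0.05. AARS2 had the largest mean, 0.31 ± 0.12, and was positive in all 3 lines (0.52, 0.22 and 0.19), with an unadjusted p of 0.032 and an adjusted p of 1. EARS2 had -0.30 ± 0.13 and was negative in all 3 (adjusted p = 1). The median was 0.08 in cytosolic and 0.01 in mitochondrial genes. TRAIL added to taurolidine called 0% of genes too (2.63% unadjusted), and members ranged from -0.43 to 0.27.

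The departure of the combination from the sum of both agents, on the log2 scale, also called 0% of genes (3.78% unadjusted). It concerns RNA signal after 6 h, and the synergy named in the study's title was not tested. AARS2 had -0.40 ± 0.17 and AARS1 0.35 ± 0.13, with the same sign in all 3 lines and adjusted p of 0.998. Each treatment had 1 array a line, which limits what this measure could show. For PARS2 it was -1.81, -1.44 and 2.36 in A-204, SK-LMS-1 and VA-ES-BJ cells, so the lines went opposite ways.

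The lines were next compared in their response to taurolidine. TRAIL was left out of this model, since no line had a repeated treatment. In each line the TRAIL array stood in as a second array without taurolidine. The array with both agents stood in as a second array with it. No synthetase passed the test of a line difference, which called 3.5% of all genes; at an unadjusted p under 0.05, FARSA, RARS1, WARS1, LARS2, MARS2 and WARS2 did, 6 of 32 members against 20.7% of all genes. FARSA, the alpha subunit of the cytosolic phenylalanine enzyme, was nearest, with changes of -0.52, 0.24 and 0.38 in A-204, SK-LMS-1 and VA-ES-BJ cells (adjusted p = 0.0516). In A-204 cells it read 4590 untreated and 4532 with TRAIL, and 3483 and 2915 with taurolidine alone and with both. In SK-LMS-1 cells the same order gave 4296, 4028, 5265 and 4564, and in VA-ES-BJ cells 5007, 4526, 6006 and 6431. The A-204 arrays with taurolidine were lower than those without, and in the other lines they were higher. FARSB, the beta subunit, had 0.16, 0.25 and 0.19, alike in the 3 lines.

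RARS1 had -0.67, -0.14 and 0.23 (adjusted p = 0.187). Its A-204 signal was 18810 untreated, 20180 with TRAIL, 14660 with taurolidine and 10180 with both. WARS1, for tryptophan and known as an interferon-induced gene, had 0.10, 0.26 and 0.77 (adjusted p = 0.0819). In VA-ES-BJ cells it went from 2662 untreated and 2910 with TRAIL to 4746 with taurolidine and 4784 with both. A second bright WARS1 probe set had -0.45, 0.02 and 0.12, lower in each line and in the same order. Calls here moved with the settings: FARSA passed with the table median as the constant (0.0295), FARSA and WARS1 passed among genes above that median on all arrays (0.0157 and 0.0325), and WARS1 passed after quantile normalisation (0.0256).

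Levels of most synthetases differed between lines. A level here covers all 4 arrays of a line, those with taurolidine included, with treatment as a term in the model. Of the 32 genes, 25 passed the F test over lines, 13 of 17 cytosolic and 12 of 15 mitochondrial, against 73.9% of all genes. Each line is 1 line of its tumour type, so a line and a tumour type cannot be told apart. WARS1 had the widest range, with mean signals of 18850 for A-204, then 6129 for SK-LMS-1 and 3776 for VA-ES-BJ, a difference of 2.37 ± 0.15 (log2) between the first and the last. FARS2, for mitochondrial phenylalanine, read 11840, 3208 and 2645, 4.40-fold higher in A-204 than in VA-ES-BJ cells, and the 2 lower lines did not differ past the threshold (adjusted p = 0.0507).

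CARS1 was highest in SK-LMS-1 cells (7033, 13650 and 4598 in A-204, SK-LMS-1 and VA-ES-BJ), while CARS2 was lowest there (3614, 1526 and 2177). VARS1 was highest in VA-ES-BJ cells (3224, 4559 and 8616), and VARS2 was highest in A-204 cells (2436, 1158 and 1923). In both amino acids, therefore, the 2 compartments had different line orders. LARS2 was highest in A-204 cells, NARS2 in SK-LMS-1 cells and YARS2 in VA-ES-BJ cells, at 1.93, 1.76 and 2.19 times the lowest line. In untreated cells alone, however, YARS2 read 1670, 1048 and 1670 in A-204, SK-LMS-1 and VA-ES-BJ. Its excess in VA-ES-BJ over A-204 cells was seen only on the treated arrays. MARS2 and PARS2 were among the 7 that did not pass (adjusted p = 0.469 and 0.705), along with RARS1, KARS1, FARSA, TARS1 and EARS2.

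**Figure D4:**
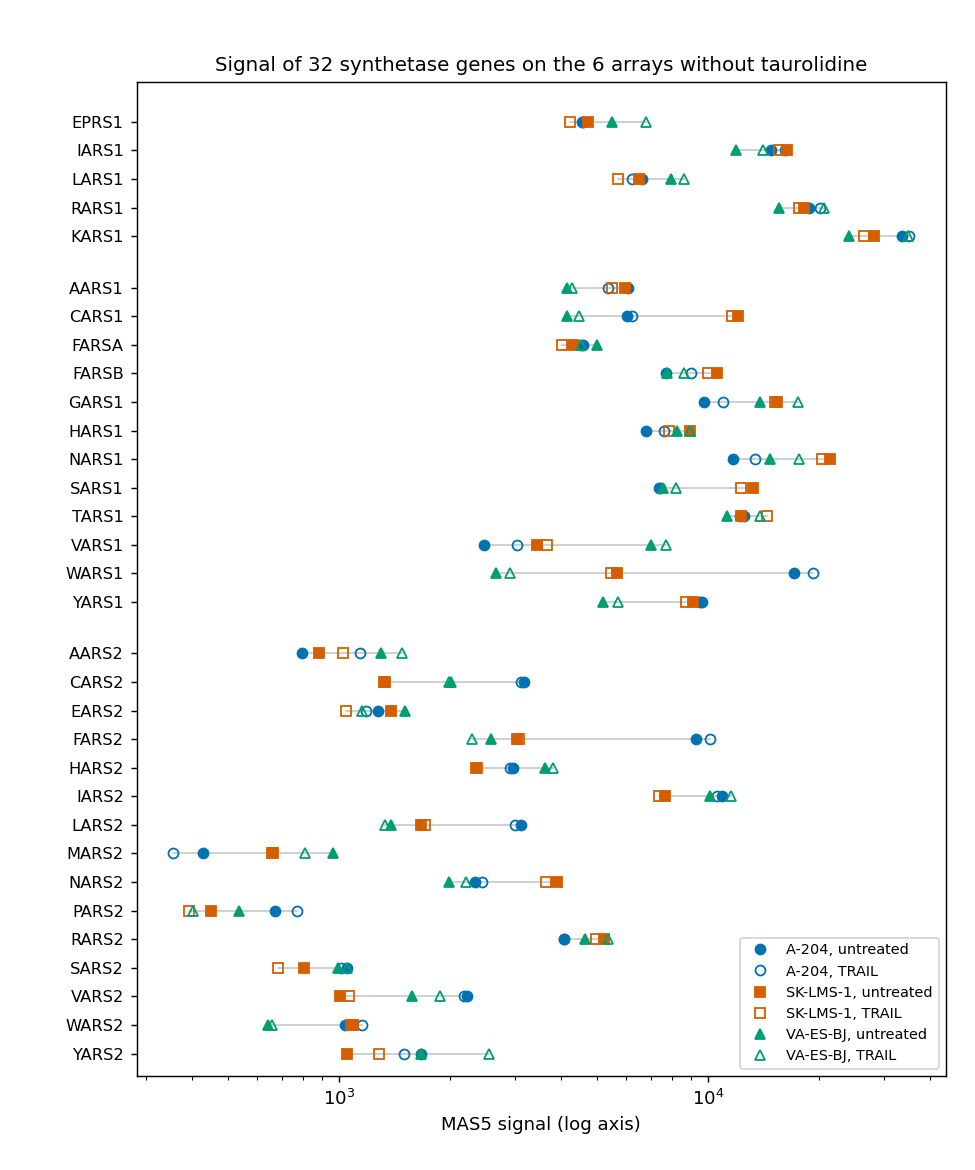
MAS5 signal (log axis) of 32 synthetase genes is plotted on the 6 arrays without taurolidine, filled for untreated cells and open for TRAIL, with a colour and shape for each line and genes in the order multi-synthetase complex, other cytosolic, mitochondrial. The 2 arrays of a line lie close together for many genes but not all. In VA-ES-BJ cells YARS2 read 1670 untreated and 2549 with TRAIL, and KARS1 24200 and 35000. WARS1 and FARS2 stand far higher in A-204 cells than in the other lines.

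Several members had more than 1 probe set, and these did not always move together. For 18 genes there were 35 further probe sets, of which 19 exceeded the table median on all arrays; 11 of those had the same sign as the brightest one and 8 the opposite. EPRS1 had 0.30 at its brightest probe set and -0.09 and -0.68 at 2 dimmer ones. WARS1 had 0.38 and -0.11, and LARS1 0.21, 0.28, -0.07 and -0.15. KARS1 had 0.29 and 0.28. With the mean of all probe sets in place of the brightest, EPRS1 had -0.15 and FARSB -0.11. Under this setting 4 members rose instead of 14, and 13.5% of all genes instead of 16.6%. YARS1 then fell, with -0.50 (adjusted p = 0.0424). The opposing probe sets of FARSB and YARS1 had mean signals below the middle of the table, the one of YARS1 at 128. SARS1 had 0.23 at its brightest probe set and -0.03 at a second one. The rises of EPRS1, FARSB, SARS1, WARS1 and YARS1 are therefore those of 1 probe set each. CARS1 and VARS1 did not pass in limma with the mean of all probe sets, at 0.09 (adjusted p = 0.617) and 0.34 (0.0821). Dimmer probe sets of CARS1 had 0.16, -0.03 and -0.09, and the dimmer one of VARS1 had 0.19.

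Other genes around tRNA charging were read from 3 lists. Their changes are given without scaling to spike-in RNA, which moved the median of all genes from 0.04 to -0.55. Small rises in these lists therefore carry the same limit as those of the synthetases. Of 11 measured partners of cytosolic charging and tRNA delivery, 3 rose with taurolidine and none fell, where 16.6% of all genes rose and 18.1% fell. These were PSTK, a kinase in selenocysteine-tRNA synthesis (0.62), and the elongation factor genes EEF1A2 (0.41) and EEF1D (0.41). AIMP1, a scaffold of the multi-synthetase complex, had 0.15 (adjusted p = 0.0885). The median was 0.10, against 0.04 over all genes.

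Of 24 measured genes of mitochondrial translation and tRNA processing, 5 rose and 6 fell, near the 16.6% and 18.1% of all genes, with a median of -0.04. TUFM, the mitochondrial elongation factor, rose by 0.42 and HSD17B10, a subunit of mitochondrial RNase P, by 0.53. TRMT10C, its partner in the same enzyme, fell by 0.91 on the log2 scale, and PUS1, a pseudouridine synthase of tRNA, fell by 0.74. The largest fall was that of MTRFR, a release factor of mitochondrial ribosome rescue, -1.54 ± 0.09 (adjusted p = 5.5e-05). MTFMT, which formylates the methionyl-tRNA that MARS2 makes, fell by 0.42 ± 0.11 on the log2 scale (adjusted p = 0.0175).

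Of 31 genes of the integrated stress response and amino acid supply, 13 rose and 6 fell, against 16.6% and 18.1% of all genes, with a median of 0.17. ATF4 rose 2.05-fold and ATF3, an early stress factor, 10.6-fold, and PPP1R15A, which restores translation, rose 4.22-fold. ASNS, the asparagine synthetase that ATF4 is known to drive, rose 1.33-fold. TRIB3, CHAC1 and CEBPG, also known ATF4 targets, fell by 0.89, 0.97 and 0.80 on the log2 scale, and SESN2 fell by 1.53. Genes of this list thus moved both ways.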

How the data were processed

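Total RNA of 3 cell lines under 4 treatments was hybridised to 1 array each. The authors deposited probe set intensity, not logged, made with MAS5 per the submitters' processing notes; its version is not given in the sources used here. The mean without the lowest and highest 2% was 1000.1 to 1000.2 on each array, so the authors' values carry a common mean. Of 54675 probe sets, 41097 named 1 gene. Those above the table median (136.5) on at least 3 arrays were kept, the brightest stood for its gene, and 14221 genes were fitted as log2(value + 11.8), the constant being the 10th percentile. limma 3.58.1 in R 4.3.3 used treatment and cell line as terms (6 residual and 1.98 prior degrees of freedom), Benjamini-Hochberg over all genes, threshold 0.05; the procedure was tested on simulated data. The test of line differences in response instead used cell line, taurolidine present or not, and their interaction, with TRAIL left out. Figures were drawn with matplotlib 3.10.9 in Python 3.11.15. Arrays of 1 line form a block, since they come from the same line; their deviations from treatment means correlated at 0.857 to 0.908. The labels do not say that arrays are separate cultures, so p-values rest on a spread between arrays that may be technical. The number of arrays limits the precision. All listed members were named, with their partner lists; members and lists were chosen with earlier results of these data known. Alternatives covered the constant, the filter, the scaling, the cell line term, the arrays fitted, left-out lines, the probe set and the variance prior.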

Additional observations from a re-analysis of the deposited data

How the results depend on the processing

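Between arrays with and without taurolidine, MARS2 and PARS2 had negative changes under every alternative that tested them; both were left out where genes had to exceed the table median on all arrays. The numbers of members called moved more. For arrays with taurolidine against those without, 14 higher and 2 lower became 6 higher with no filter, 7 higher after quantile normalisation, 4 higher with the mean of all probe sets, 0 lower with the filter on all arrays, 0 higher and 30 lower with spike scaling, and 0 to 3 higher and 1 to 2 lower with a line left out. The share of all genes called higher, 16.6%, became 9.04% with no filter, 20% after quantile normalisation and 13.5% with the mean of all probe sets. With the filter on all arrays 26.2% of genes were lower. Spike scaling gave 0.534% higher and 68.3% lower, and a line left out 3.54% to 8.03% higher and 8.85% to 12.3% lower. In the unpaired fit, with no replicate block (no cell line term), 0 members were higher and 2 lower, against 0.345% and 3.5% of all genes. Calls of small rises therefore needed the comparison within a line, for members as for all genes.

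For taurolidine alone, 2 higher and 2 lower became 1 higher with no filter, 8 higher and 0 lower with the filter on all arrays, 4 higher after quantile normalisation, 8 higher with equal array medians, 12 higher with a trended robust prior and 0 higher with the mean of all probe sets. Spike scaling gave 0 higher and 22 lower, no replicate block 0 and 1, only the treatments compared 0 and 0, and a line left out 0 higher and 0 to 1 lower. Of all genes, 7.71% higher became 2.57% with no filter, 9.67% after quantile normalisation and 12.5% with equal array medians. It became 11.6% with the trended prior and 5.89% with the mean of all probe sets. The filter on all arrays gave 16.6% higher and 19.9% lower, spike scaling 0.246% and 57.5%, and no replicate block 0.0422% and 0.999%. A line left out gave 0.197% to 0.345% higher and 2.19% to 2.76% lower. For both agents, 3 higher and 2 lower became 1 higher with no filter, 7 higher and 0 lower with the filter on all arrays, 5 higher after quantile normalisation, 12 higher with the trended prior, 0 higher and 7 lower with spike scaling, 0 higher with no replicate block, 0 and 0 with only the treatments compared, and 0 higher and 0 to 1 lower with a line left out. Of all genes, 7.58% higher became 2.29% with no filter, 9.76% after quantile normalisation and 11.7% with the trended prior. The filter on all arrays gave 16.7% higher and 19.5% lower, spike scaling 0.415% and 34.6%, and no replicate block 0.0563% higher. A line left out gave 0.155% to 0.408% higher and 1.48% to 3.26% lower. For taurolidine added to TRAIL, 2 higher and 2 lower became 0 higher with no filter, 4 higher and 0 lower with the filter on all arrays, 6 higher after quantile normalisation, 0 higher with equal array medians, 1 higher with the mean of all probe sets, 7 higher with the trended prior, 0 and 18 with spike scaling, 0 and 0 with no replicate block and with only the treatments compared, and 0 higher and 0 to 1 lower with a line left out. Of all genes, 6.5% higher became 1.47% with no filter, 9.2% after quantile normalisation and 3.35% with equal array medians. It became 5.12% with the mean of all probe sets and 10.1% with the trended prior. The filter on all arrays gave 14.5% higher and 17.5% lower, spike scaling 0.394% and 44.3%, and no replicate block 0.0703% and 0.956%. A line left out gave 0.232% to 0.492% higher and 1.55% to 2.89% lower. Members with a line difference in response, 0, became 1 with the constant at the table median, 2 with the filter on all arrays and 1 after quantile normalisation. TRAIL, TRAIL added and the departure from additivity gave 0 calls of members in every alternative run, and 25 or 26 members differed in level between lines.

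The cytosolic median stood 0.17 above that of all genes, and 0.175 with the constant at the table median, 0.165 with no filter, 0.179 with the filter on all arrays, 0.004 after quantile normalisation, 0.09 with the mean of all probe sets and 0.163 to 0.187 with a line left out. The mitochondrial distance of -0.057 became -0.033 with the filter on all arrays, 0.031 after quantile normalisation, -0.022 with the mean of all probe sets and -0.073 to 0.004 with a line left out.

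Signs turned as follows. With spike scaling the changes were EPRS1 -0.285, IARS1 -0.411, LARS1 -0.377, KARS1 -0.302, AARS1 -0.372, CARS1 -0.277, FARSA -0.553, FARSB -0.388, GARS1 -0.403, HARS1 -0.444, NARS1 -0.394, SARS1 -0.359, TARS1 -0.453, VARS1 -0.091, WARS1 -0.209, YARS1 -0.33, CARS2 -0.26, FARS2 -0.291, IARS2 -0.509, RARS2 -0.398, SARS2 -0.314, VARS2 -0.295, CARS1 -0.274 for taurolidine alone, VARS1 -0.056 for taurolidine alone, CARS2 -0.075 for both agents, VARS2 -0.088 for both agents, AARS1 -0.154 for taurolidine added to TRAIL and CARS2 -0.155 for taurolidine added to TRAIL. After quantile normalisation they were TARS1 -0.015, AARS2 0.184, EARS2 0.137, HARS2 0.058, IARS2 -0.042, LARS2 0.042, NARS2 0.098, WARS2 0.113 and YARS2 0.006. With equal array medians they were AARS2 0.019, HARS2 0.014 and NARS2 0.034, and with the mean of all probe sets EPRS1 -0.154, FARSB -0.105, YARS1 -0.496, RARS2 -0.005 and CARS2 -0.001 for both agents. Separate values with TRAIL and without it were added after seeing the data: on arrays without TRAIL AARS2 0.184 and NARS2 0.077, and on arrays with TRAIL EARS2 0.075. With a line left out the ranges were RARS1 -0.407 to 0.043, FARSA -0.14 to 0.31, AARS2 -0.059 to 0.066, EARS2 -0.127 to 0.055, HARS2 -0.074 to 0.022, NARS2 -0.059 to 0.09 and WARS2 -0.201 to 0.028.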
